A study of Mus musculus with 23 samples.

Results

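Lumbar spinal cord of mice carrying a human C9orf72 transgene with the repeat expansion (F112, labelled F112exp) was set against that of nontransgenic mice (NTg), with gene expression measured by RNA sequencing. There were 4 F112 and 4 NTg libraries, 8 of the 23 libraries in the series, each from a different mouse. Every gene of the spinal cord table was a candidate, and the 13816 of 19864 genes with a mean level of at least 0.5 RPKM over its 12 libraries were tested. RPKM, the unit of the deposited values, is a read count scaled to the length of the gene and the depth of the library. The other 4 spinal cord libraries came from F08 mice, which carry human C9orf72 without the expansion, and they shared the fit. The mice of all 3 groups were C57BL/6 and 6 months old, and their labels give no sex. The series title names bacterial artificial chromosome (BAC) transgenic mice. F112 and F08 are a single line each, so an effect of the repeat cannot be told apart from an effect of the line or of where the transgene sits. Nothing in the labels pairs an F112 mouse with an NTg mouse. P-values of the fit set a difference between groups against the spread between mice within groups, estimated over all 3 groups.

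C9orf72 works with the proteins SMCR8 and WDR41 in a complex that acts in autophagy, endosomal traffic and lysosome function. A GGGGCC repeat in an intron of the human gene is the most frequent known genetic cause of amyotrophic lateral sclerosis (ALS) and frontotemporal dementia (FTD). The expanded repeat is transcribed from both strands, its RNA collects in foci that bind RNA-binding proteins, and it is translated into dipeptide repeat proteins. Lumbar cord holds the motor neurons of the hindlimb, which degenerate in ALS, among interneurons, oligodendrocytes, astrocytes and microglia.

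Levels of the marker genes fitted the labelled tissue. Chat, the acetylcholine synthetic enzyme of motor neurons, was at 10.3, 11.2, 11.0 and 11.3 RPKM in F112 and 11.1, 11.9, 9.58 and 10.7 RPKM in NTg. Hoxc10, which marks the lumbar level, was at 27.0 to 34.0 RPKM in F112 and 23.8 to 32.4 RPKM in NTg. Libraries held 34097800 to 38811100 alignments in F112 and 28479400 to 34100800 in NTg, so no F112 library except 6324 was shallower than the deepest NTg library. Pearson's r across genes between libraries of a group was 0.993 to 0.998 over the 3 groups, and genes are not independent replicates. Xist, transcribed from the inactive X chromosome, was high in 2 mice of each group (F112 6316 and 6317, NTg 6322 and 6323). F112 library 6325 stood apart, with Rn45s, the precursor of ribosomal RNA, at 459 RPKM, against 31.5 to 56.1 RPKM in the other F112 libraries and 32.1 to 48.3 RPKM in NTg. Lars2, a mitochondrial tRNA synthetase, was at 164 RPKM in the same library, against 15.7 to 18.8 RPKM in the other F112 libraries and 11.9 to 18.7 RPKM in NTg. F112 library 6324 stood apart in another way, described below with GC content. Values of single libraries are given in the order 6316, 6317, 6324 and 6325 for F112, 6318 to 6321 for F08, and 6322, 6323, 6326 and 6327 for NTg.

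A single gene, 4930413G21Rik, passed the test between F112 and NTg, and it was lower in F112. That is 0.00724% of the 13816 genes (limma, Benjamini-Hochberg adjusted p under 0.05). At an unadjusted p under 0.05, 305 genes were higher (2.21%) and 678 were lower (4.91%) in F112. That split depended on the scaling, with 420 higher and 551 lower under median-of-ratios scaling and 460 higher and 522 lower under quantile normalization. It also depended on single libraries, with 250 higher and 432 lower without F112 6324 and 408 higher and 1119 lower without F112 6317. Over all genes, 7783 of the 13816 differences were below 0. All 4 F112 libraries were above all 4 NTg libraries for 135 genes (0.977%) and below them for 290 genes (2.1%). The median log2 difference over all genes was -0.01, and the median standard error (SE) was 0.06. Counts at an unadjusted p under 0.05 in the gene lists below have 2.21% higher and 4.91% lower of all genes as their background. In this comparison no other gene named below passed the test with all libraries in the fit, and values without an adjusted p beside them had one above 0.05.

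**Figure D1:**
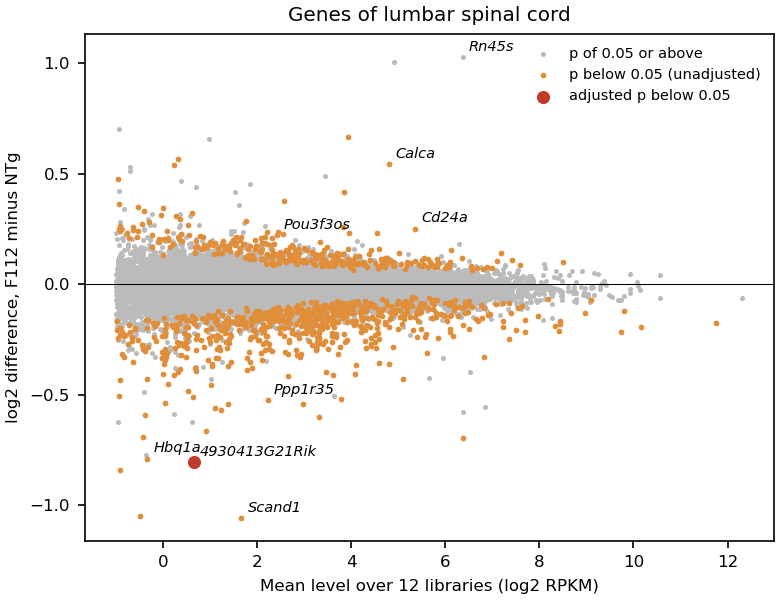
Each point is a gene of lumbar spinal cord, with its mean level over 12 libraries (log2 RPKM) on the horizontal axis and its log2 difference, F112 minus NTg, on the vertical axis. The gene that passed the adjusted threshold, 4930413G21Rik, lies at -0.80, and Rn45s, high in F112 library 6325, lies at 1.03.

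4930413G21Rik is annotated by RefSeq as a long noncoding RNA on chromosome 7 (GRCm38, 122969058 to 122970459, minus strand). Between its start and a start of Rbbp6 on the plus strand lie 104 bases. Rbbp6 encodes a ubiquitin ligase that binds the retinoblastoma protein, and from these starts the pair are transcribed away from each other. The GC-rich stretch between the starts is shown because it lies before both genes, as RefSeq gives it (GRCm38.p6, chr7:122970460-122970563, plus strand), with CG dinucleotides in capitals; it is 71.2% G or C.
4930413G21Rik and Rbbp6: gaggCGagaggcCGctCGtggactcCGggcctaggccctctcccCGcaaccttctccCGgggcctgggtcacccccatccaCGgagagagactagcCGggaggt
4930413G21Rik was at 1.12, 0.855, 0.699 and 1.03 RPKM in F112, against 1.99, 1.69, 1.69 and 1.81 RPKM in F08 and 2.62, 1.75, 1.88 and 1.74 RPKM in NTg. The highest F112 library was below the lowest library of either other group. The log2 difference from NTg was -0.80 (SE 0.11, limma adjusted p = 0.0435; exact permutation p = 0.0286, the smallest that 70 rearrangements allow). The difference from F08 was -0.69 (limma adjusted p = 0.0583). By transcript length and alignments, these levels correspond to roughly 24 to 80 reads a library. Rbbp6 was at 18.0, 18.7, 20.1 and 16.9 RPKM in F112 and 18.6, 17.5, 18.5 and 17.4 RPKM in NTg, a difference of 0.03 (adjusted p = 0.899). A shorter Rbbp6 transcript in the GENCODE annotation begins upstream of this stretch and spans 4930413G21Rik on the other strand. No source used here says how strands were treated, so reads of the overlapping transcripts cannot be told apart. The call was lost when any of 11 of the 12 libraries was left out, with an adjusted p of 0.0617 to 0.158 and a log2 difference of -0.85 to -0.69; it was kept without F112 library 6316. It was also lost in 7 of 13 other settings, such as a fit of F112 and NTg alone (adjusted p = 0.413) or a pseudocount of 1 RPKM (adjusted p = 0.0505).

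Below 4930413G21Rik, the genes with the smallest p among those lower in F112 did not overlap between F112 and NTg either. Ppp1r35, a centriole protein, was at 4.20, 3.46, 2.93 and 3.83 RPKM in F112, 4.86, 5.25, 4.80 and 5.31 RPKM in F08 and 5.85, 5.12, 4.85 and 5.69 RPKM in NTg (log2 -0.52, SE 0.08, limma adjusted p = 0.119). Without F112 library 6316, the highest of the 4, this gene passed as well (-0.59, adjusted p = 0.0249). Hbq1a, a theta globin gene, was at 0.532, 0.342, 0.415 and 0.264 RPKM in F112, 1.06, 1.02, 0.692 and 1.04 RPKM in F08 and 1.32, 0.832, 1.26 and 0.769 RPKM in NTg (log2 -0.79, adjusted p = 0.138). Its levels correspond to only about 6 to 24 reads a library, and reads could be split with its near-identical copy Hbq1b, at 0.825, 1.54, 1.02 and 0.941 RPKM in F112 and 0.854, 0.491, 1.20 and 0.732 RPKM in NTg. The sum of the copies was not tested. Scand1, a small SCAN domain protein, had the lowest log2 difference of all genes tested (-1.06, SE 0.23, adjusted p = 0.424). It was at 1.83, 2.28, 1.25 and 1.97 RPKM in F112 and 8.23, 3.66, 2.82 and 3.85 RPKM in NTg, with NTg library 6322 far above the rest of its group. Pcsk1n, the precursor of proSAAS, an inhibitor of prohormone convertase, was at 70.9, 71.3, 40.9 and 60.5 RPKM in F112, 90.5, 94.4, 84.3 and 90.9 RPKM in F08 and 142, 85.1, 79.4 and 91.0 RPKM in NTg (log2 -0.70, adjusted p = 0.424); this gene was chosen after its values were seen. NTg library 6322 was again the highest of its group, and the F112 libraries were below every F08 and NTg library.

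Several others differed by less, with little spread. Gtl3, a cilium protein also named Cfap20, was at 13.2, 13.4, 13.1 and 13.1 RPKM in F112 and 16.8, 15.5, 14.8 and 15.1 RPKM in NTg (log2 -0.23, adjusted p = 0.376). Hapln2, which links hyaluronan and proteoglycans at nodes of Ranvier, was at 44.5, 44.0, 39.0 and 44.6 RPKM in F112 and 51.3, 52.4, 49.3 and 49.8 RPKM in NTg (log2 -0.24, adjusted p = 0.424). Epm2a, the glycogen phosphatase laforin, was at 6.58, 7.63, 7.41 and 7.04 RPKM in F112 and 8.56, 8.48, 8.34 and 8.24 RPKM in NTg. The polarity protein gene Pard6a was at 9.23, 10.1, 8.73 and 9.67 RPKM in F112 and 11.0, 11.1, 10.6 and 10.8 RPKM in NTg. Each of these pairs of ranges was separate. Cox5b, a subunit of cytochrome c oxidase, differed from NTg by -0.21, and C1qtnf4, a secreted C1q-related protein, by -0.52, each with an adjusted p of 0.424.

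Among the genes higher in F112, none had an adjusted p below 0.424. Pou3f3os, the noncoding RNA opposite the neuronal transcription factor gene Pou3f3, was at 6.19, 5.66, 5.91 and 6.07 RPKM in F112, 4.95, 5.71, 4.98 and 5.17 RPKM in F08 and 5.06, 4.92, 5.17 and 4.98 RPKM in NTg (log2 0.22, SE 0.05, adjusted p = 0.424). Cd24a, a surface sialoglycoprotein of immature neurons and leukocytes, was at 41.5, 44.5, 48.1 and 43.4 RPKM in F112 and 40.1, 38.8, 33.0 and 36.8 RPKM in NTg (log2 0.25). For both genes the lowest F112 library was above the highest NTg library. Rpl22l1, a paralog of the ribosomal protein RPL22, was at 76.5, 77.4, 76.4 and 71.2 RPKM in F112, 62.0, 65.7, 66.5 and 67.5 RPKM in F08 and 65.7, 72.1, 67.9 and 64.6 RPKM in NTg (log2 0.16 against NTg and 0.20 against F08), and F112 library 6325 overlapped NTg. Anxa2, a membrane-binding annexin, was at 22.0, 25.7, 24.3 and 26.3 RPKM in F112, 22.7, 23.7, 26.3 and 25.3 RPKM in F08 and 20.5, 22.9, 18.9 and 20.97 RPKM in NTg. Its F112 and F08 libraries covered nearly the same range. Others in this group were Cyp4x1, Ttc23, Nif3l1, Apoo and Slc11a1, with log2 differences of 0.13 to 0.28. Slc11a1, an endosomal metal transporter of macrophages, was at 0.910, 0.972, 0.919 and 1.01 RPKM in F112 and 0.577, 0.755, 0.605 and 0.865 RPKM in NTg.

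**Figure D2:**
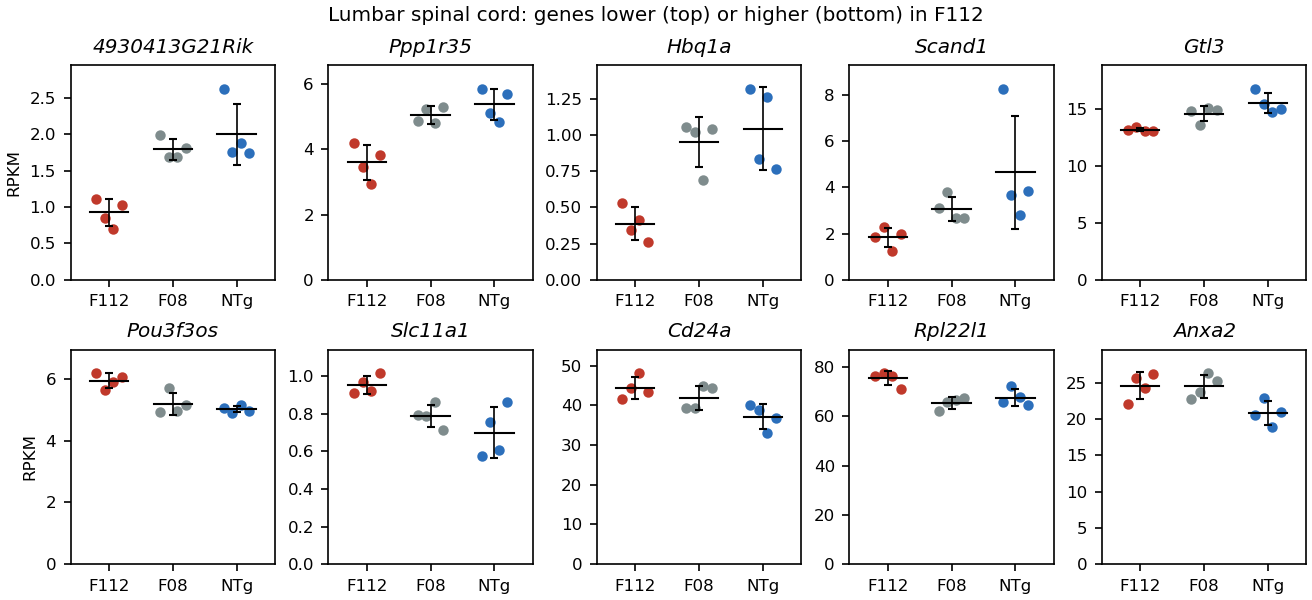
RPKM of 10 genes in each of the 12 spinal cord libraries, with 4 libraries a group, F112 on the left, F08 in the middle and NTg on the right; points are libraries, the long bar is the mean and the whisker is 1 SD. For 4930413G21Rik the F112 libraries sit between 0.699 and 1.12 RPKM, below every F08 and NTg library.

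Genes lower in F112 were richer in G and C than genes higher in F112. The median transcript GC content was 55.5% for the 678 genes lower at an unadjusted p under 0.05 and 45.5% for the 305 genes higher, against 49.9% for all genes tested. Genes were cut into 4 groups of about equal size by GC content. In the GC-richest group (54.7% to 71.3%), 11.4% were lower and 0.254% were higher at that p, while in the GC-poorest (31.0% to 44.9%), 0.825% were lower and 4.25% were higher. The tilt lay mostly in 1 library. In F112 6324 the GC-richest group stood -0.28 from the GC-poorest on the log2 scale relative to NTg, against -0.05 to 0.05 in the other F112 libraries and -0.09 to 0.05 in NTg. The median difference between F112 and NTg in the GC-richest group was -0.06 with all libraries and -0.01 without F112 6324. After each library was smoothed on GC content, an alternative chosen after seeing the data, 441 genes were higher and 534 were lower at an unadjusted p under 0.05, and 4930413G21Rik still passed (-0.78, adjusted p = 0.0350). Without F112 6324 it did not (-0.72, adjusted p = 0.149). Scand1 is at 68.4% GC, C1qtnf4 at 70.7% and Ppp1r35 at 63.6%, and their differences were -0.87, -0.29 and -0.41 after the correction. GC-corrected values are given beside some of the gene groups and genes below, and the others are uncorrected. The part of GC content in them was not otherwise tested.

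**Figure D3:**
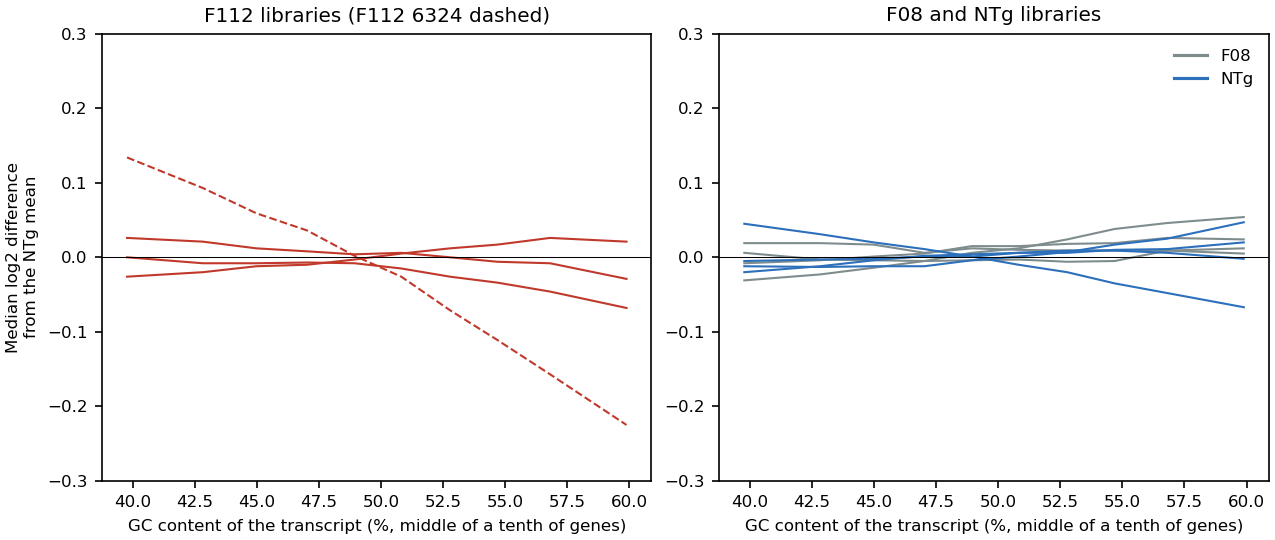
Median log2 difference of a library from the NTg mean, on the vertical axis, in 10 equal groups of genes ordered by transcript GC content, on the horizontal axis; the left panel holds the 4 F112 libraries and the right panel the 4 F08 and 4 NTg libraries. F112 6324, dashed, stands at 0.13 in the GC-poorest group and -0.23 in the GC-richest, a wider span than in any of the other 11 libraries.

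Mouse C9orf72, listed as 3110043O21Rik (chromosome 4, 35191285 to 35226153), was at 12.8, 11.8, 13.4 and 12.5 RPKM in F112, 11.6, 11.9, 12.1 and 11.6 RPKM in F08 and 12.0, 12.1, 11.8 and 12.1 RPKM in NTg. Of the F112 libraries, 3 were above the highest NTg library and F112 6317 was within the NTg range (log2 0.07, SE 0.04, limma adjusted p = 0.750). No source used here says whether human reads of the transgene also map to it. Its partner genes Smcr8 and Wdr41 were at 6.88, 6.52, 7.03 and 7.15 RPKM and 11.8, 11.4, 11.7 and 11.2 RPKM in F112, against 7.21, 7.25, 7.06 and 7.19 RPKM and 11.5, 11.8, 12.2 and 11.8 RPKM in NTg, with log2 differences of -0.06 and -0.04. Rab39b, a small GTPase that the complex is reported to activate, was at 12.1, 10.9, 13.7 and 11.4 RPKM in F112 and 11.2, 11.0, 11.7 and 10.9 RPKM in NTg. Sqstm1, the autophagy receptor p62 that collects in dipeptide repeat inclusions, was at 189.8, 200.3, 183 and 188 RPKM in F112 and 205, 193, 189 and 207 RPKM in NTg (log2 -0.06). Every one of these pairs overlapped. None of the 11 tested genes of the complex and of autophagy initiation had an unadjusted p under 0.05, with differences from -0.06 to 0.10.

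More genes of motor neurons were above NTg than below it in F112. Of 18 tested, 13 were above 0, 4 were higher and none was lower at an unadjusted p under 0.05 (against 2.21% higher and 4.91% lower of all genes), and 2 had ranges entirely above NTg, against 0.977% of all genes (list median 0.07, 0.13 after the GC correction, against -0.01 for all genes). F08 shared the direction, with a list median of 0.07 against NTg, and the list median of F112 against F08 was 0.02. Both comparisons with NTg share the NTg libraries. By library, the list median stood 0.03, 0.26, 0.01 and 0.06 from the NTg mean in F112, and -0.08 to 0.065 in NTg. Without F112 6317 the list median was 0.03. In bulk tissue, more cells of a type and more RNA per cell cannot be told apart. Slc5a7, the choline transporter of cholinergic terminals, was at 14.4, 17.7, 18.3 and 16.8 RPKM in F112, 13.7, 15.7, 16.2 and 15.9 RPKM in F08 and 14.4, 14.7, 13.8 and 13.9 RPKM in NTg (log2 0.23, adjusted p = 0.521). F112 library 6316 lay within NTg, and the other 3 lay above it. Calcb and Calca encode the calcitonin gene-related peptides, which motor neurons and sensory neurons make. Calcb was at 5.50, 7.87, 6.34 and 7.26 RPKM in F112 and 5.49, 4.88, 4.66 and 5.16 RPKM in NTg (log2 0.38), with no overlap. In F08 it was at 4.96, 6.30, 6.68 and 5.84 RPKM, overlapping F112, and differed from NTg by 0.21. Calca was at 25.9, 41.8, 29.8 and 36.0 RPKM in F112, 26.1, 39.8, 22.1 and 22.2 RPKM in F08 and 26.1, 26.8, 18.4 and 19.5 RPKM in NTg (log2 0.55, SE 0.18, adjusted p = 0.599). With only the 6 libraries low in Xist, 2 of each group and chosen after seeing the data, its difference passed (0.78, limma adjusted p = 0.0273). With the 6 high in Xist, also 2 of each group, it was 0.31. Chodl, a membrane lectin of fast motor neurons, was at 14.6, 16.8, 16.0 and 15.4 RPKM in F112 and 13.2, 14.8, 11.6 and 12.6 RPKM in NTg (log2 0.26). Chat itself differed by 0.02 (adjusted p = 0.962). Uts2, the peptide urotensin 2 of spinal motor neurons, was at 14.7, 23.2, 13.2 and 29.6 RPKM in F112, 12.5, 20.5, 9.39 and 12.6 RPKM in F08 and 14.7, 13.6, 10.0 and 9.99 RPKM in NTg (log2 0.66, adjusted p = 0.619), with 2 F112 libraries above all others; it was chosen after its values were seen. Defining markers of sensory ganglia were near 0: Scn10a did not exceed 0.0049 RPKM in F112 or 0.0109 RPKM in NTg, and Trpv1 did not exceed 0.0375 RPKM in F112 or 0.06 RPKM in NTg. The 11 sensory ganglion genes summed to 17.9 to 21.4 RPKM in F112 and 15.0 to 23.1 RPKM in NTg, most of it from Tac1.

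More genes of spinal interneurons were below NTg than above it. Of 22 tested, 15 were below 0 and 7 above, 6 were lower and none was higher at an unadjusted p under 0.05 (against 4.91% lower and 2.21% higher of all genes), and 3 had ranges entirely below NTg, against 2.1% of all genes (list median -0.08, -0.05 after the GC correction). Lhx5, a transcription factor of dorsal inhibitory neurons, was at 1.82, 1.68, 1.19 and 1.76 RPKM in F112 and 2.31, 2.27, 1.97 and 2.10 RPKM in NTg (log2 -0.34, adjusted p = 0.521). En1, which marks V1 inhibitory neurons, was at 0.612, 0.568, 0.582 and 0.512 RPKM in F112, 0.764, 0.764, 0.739 and 0.643 RPKM in F08 and 0.876, 0.741, 0.737 and 0.731 RPKM in NTg (log2 -0.25), and F112 was below both other groups. Slc32a1 loads GABA and glycine into vesicles, and Slc6a5 is the glycine transporter of inhibitory terminals. Slc32a1 was at 67.0, 67.9, 51.1 and 64.4 RPKM in F112 and 77.3, 72.3, 70.2 and 69.9 RPKM in NTg, with library 6324 far below the rest (log2 -0.22, -0.12 without 6324). Slc6a5 was at 63.4, 60.6, 63.0 and 73.0 RPKM in F112 and 71.5, 71.7, 75.1 and 67.8 RPKM in NTg (log2 -0.14). F112 6325 lay among the NTg libraries. Gad1, the first gene of the same list, averaged 50.34 RPKM in F112 and 50.05 RPKM in NTg (log2 0.01, limma adjusted p = 0.977). The peptide gene Cck and Tlx3, which selects excitatory fate in the dorsal horn, differed by -0.27 and -0.38 (-0.25 for Tlx3 without F112 6324), with overlapping ranges; Tlx3 was chosen after its values were seen. In the axon list of 18, Ina, alpha-internexin of neurofilaments, was at 89.0, 85.2, 80.8 and 86.7 RPKM in F112 and 95.6, 94.1, 94.1 and 89.1 RPKM in NTg, below it throughout (log2 -0.13, -0.09 after the GC correction). Stmn2, a microtubule regulator whose human transcript is misspliced when TDP-43 is lost, was at 198, 208, 199.6 and 195 RPKM in F112 and 187, 188, 190.4 and 186 RPKM in NTg, above it throughout (log2 0.09). These were the only 2 of that list at an unadjusted p under 0.05.

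Of the synaptic lists, 14 of 19 glutamate receptor genes and 14 of 20 synaptic vesicle genes were below 0, against 7783 of all 13816. At an unadjusted p under 0.05, 4 and 3 were lower and none higher, against 4.91% lower and 2.21% higher of all genes. The list medians were -0.06 and -0.04 (-0.01 for all genes), and -0.03 and -0.02 after the GC correction. Gria1 and Snap25, the first genes of these lists, differed by 0.005 and -0.007. Grik4, a kainate receptor subunit, was at 7.72, 7.69, 7.41 and 7.29 RPKM in F112, 8.26, 8.53, 8.02 and 8.28 RPKM in F08 and 8.33, 8.72, 8.15 and 8.30 RPKM in NTg (log2 -0.14, adjusted p = 0.491), with F112 below both groups. The NMDA receptor subunit genes Grin1 and Grin2a differed by -0.10 and -0.17, and Grin1 by -0.05 without F112 6324 and -0.03 after the GC correction. Sv2c, a vesicle glycoprotein, differed by -0.13. None of the 15 glycine and GABA receptor genes had an unadjusted p under 0.05, including Glra1, the adult glycine receptor subunit, at 52.5, 45.8, 55.5 and 73.5 RPKM in F112 and 60.8, 62.3, 64.7 and 63.3 RPKM in NTg.

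Immediate early genes, which are transcribed within minutes of neuronal activity or growth factor signals, were nearly all lower in F112 than in NTg, by amounts that did not pass the test gene by gene. Of 31 tested, 30 were below 0 and 12 were lower at an unadjusted p under 0.05 (against 4.91% of all genes). For 6 of them the F112 range was entirely below NTg, against 2.1% of all genes. The list median was -0.14, -0.11 after the GC correction and -0.11 without F112 6324. Their summed level was 99.3 to 113.0 RPKM in F112, 108 to 121 RPKM in F08 and 120.0 to 124 RPKM in NTg, so F112 lay below NTg throughout. F08 shared the direction: its list median against NTg was -0.08, and both comparisons share the NTg libraries.

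Dusp1, a nuclear phosphatase that switches off MAP kinases, was at 6.78, 6.05, 5.16 and 5.23 RPKM in F112, 5.26, 5.89, 5.68 and 6.41 RPKM in F08 and 7.64, 7.40, 7.08 and 7.10 RPKM in NTg (log2 -0.31, SE 0.08, limma adjusted p = 0.424). NTg was above all other libraries. Sik1, a kinase that restrains CREB coactivators, was at 2.25, 2.06, 1.73 and 1.85 RPKM in F112 and 2.72, 2.68, 2.42 and 2.27 RPKM in NTg (log2 -0.29), again without overlap. Junb and Fos encode subunits of the AP-1 transcription factor. Junb was at 3.69, 3.36, 2.61 and 2.89 RPKM in F112 and 3.63, 4.32, 4.44 and 4.07 RPKM in NTg (log2 -0.35), and Fos at 5.42, 6.52, 6.98 and 6.65 RPKM in F112 and 6.48, 8.19, 8.82 and 9.10 RPKM in NTg (log2 -0.32), with some overlap in each. Klf2, a zinc finger factor of endothelium and neurons, was at 1.90, 2.45, 1.81 and 2.73 RPKM in F112 and 3.24, 2.87, 2.80 and 3.01 RPKM in NTg (log2 -0.37), with none. The orphan nuclear receptor genes Nr4a1 and Nr4a3 did not overlap either, at 4.03, 4.39, 3.19 and 3.74 RPKM and 0.664, 0.703, 0.520 and 0.724 RPKM in F112, against 4.76, 5.13, 4.96 and 4.60 RPKM and 0.947, 0.763, 1.20 and 0.806 RPKM in NTg. Ier2 differed by -0.33, and Arc, which shapes synaptic AMPA receptor content, by -0.13 (-0.08 without F112 6324). Nr4a1, Nr4a3, Ier2 and Arc were chosen after their values were seen.

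Transcription of these genes is driven by CREB, which binds TGACGTCA, and by serum response factor, which binds the CArG box. RefSeq windows of the 250 bases before the start were at hand for 23 of the 31 genes. TGACGTCA, read on either strand, was in the window of 3 (Dusp1, Btg2 and Maff), and in 1.77% of all 27025 genes with a window. A CArG box was in that of 2 (Dusp5 and Zfp36), and in 1.62% of all genes. A match is a description of letters and not a site. The stretches around these motifs in 4 of the genes are printed to set them beside the values (RefSeq, GRCm38.p6), with the motif in capitals. They run from chr17:26508568-26508655 for Dusp1 and chr1:134079274-134079361 for Btg2, both on the minus strand, and from chr7:28379237-28379326 on the minus strand for Zfp36 and chr19:53529023-53529122 on the plus strand for Dusp5.
Dusp1: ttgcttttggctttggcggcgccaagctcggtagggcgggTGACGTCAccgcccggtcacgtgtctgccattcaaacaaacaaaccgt
Btg2: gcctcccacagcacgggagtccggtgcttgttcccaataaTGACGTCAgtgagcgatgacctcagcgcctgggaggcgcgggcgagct
Zfp36: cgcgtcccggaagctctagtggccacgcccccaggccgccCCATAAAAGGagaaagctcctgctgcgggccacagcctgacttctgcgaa
Dusp5: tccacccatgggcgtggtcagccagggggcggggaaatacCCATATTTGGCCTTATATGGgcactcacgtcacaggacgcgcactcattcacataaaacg
The motif begins 143 bases before the start of Dusp1, 166 before that of Btg2 and 58 before that of Zfp36, and Dusp5 has a pair of CArG boxes side by side. The 5 genes with a motif differed from NTg by -0.31 to -0.11. Btg2, an antiproliferative gene, was at 2.55, 1.96, 1.34 and 1.68 RPKM in F112 and 2.40, 2.09, 1.70 and 1.95 RPKM in NTg (log2 -0.11, adjusted p = 0.884), with overlap. Zfp36, which destabilises AU-rich mRNAs, was at 1.68, 1.93, 1.81 and 1.64 RPKM in F112 and 1.88, 1.95, 2.03 and 2.11 RPKM in NTg (log2 -0.14). The phosphatase gene Dusp5 was at 0.406, 0.819, 0.411 and 0.579 RPKM in F112 and 0.848, 0.622, 0.587 and 0.575 RPKM in NTg (log2 -0.15). Maff, a small Maf factor, differed by -0.16. Btg2, Zfp36, Dusp5 and Maff were named for the motifs.

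**Figure D4:**
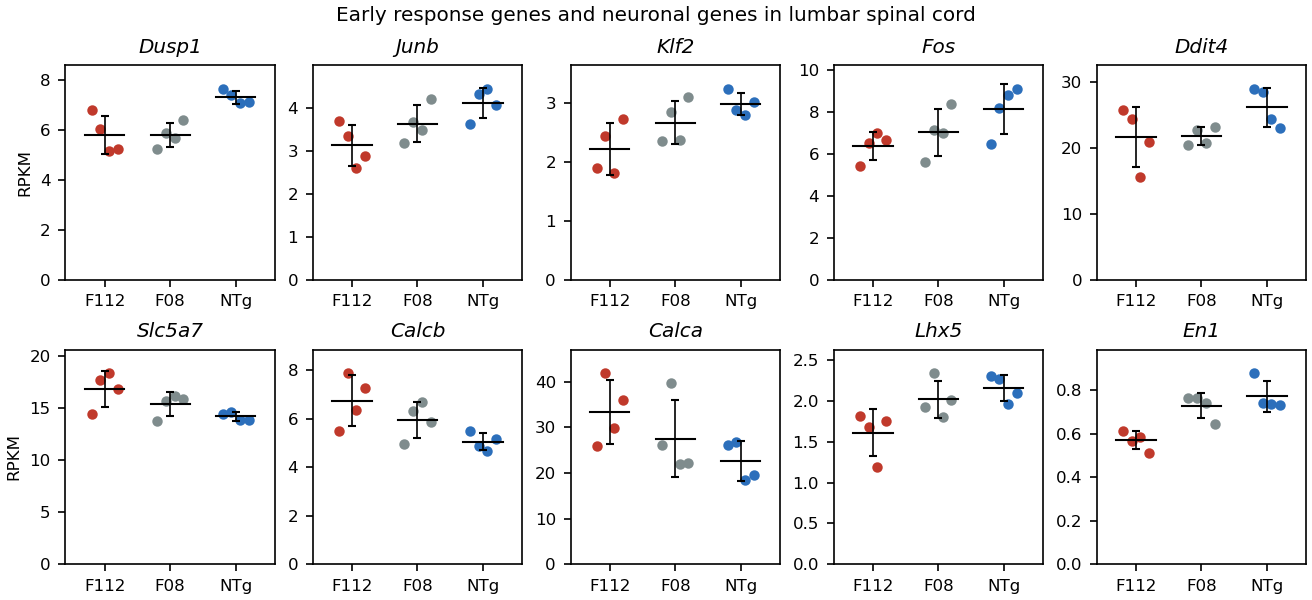
RPKM of 5 early response genes (top) and 5 neuronal genes (bottom) in each spinal cord library, F112 on the left, F08 in the middle and NTg on the right; points are libraries, the long bar is the mean and the whisker is 1 SD of 4 libraries. For Dusp1 the NTg libraries lie between 7.08 and 7.64 RPKM, above every F112 and F08 library.

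Glucocorticoid response genes, which overlap the early genes at Dusp1, were below 0 for 15 of 19. At an unadjusted p under 0.05, 5 were lower, against 4.91% of all genes (list median -0.12). F08 shared the direction, with a list median of -0.11 against NTg, and the list median of F112 against F08 was -0.001. By library, the list median stood -0.18 to -0.06 from the NTg mean in F112. NTg 6326 and 6327, at -0.07 and -0.13, lay within that range. The median difference between F112 and NTg was -0.25 within the libraries high in Xist and 0.05 within those low in Xist. The stress gene Ddit4, an inhibitor of mTOR signalling, was at 25.7, 24.3, 15.5 and 20.9 RPKM in F112, 20.4, 22.8, 20.7 and 23.2 RPKM in F08 and 28.9, 28.4, 24.3 and 22.9 RPKM in NTg (log2 -0.29, -0.14 without F112 6324). Mt1, a metal-binding metallothionein, was at 323, 344, 286 and 320.1 RPKM in F112 and 401, 405, 326 and 346 RPKM in NTg (log2 -0.21). Fkbp5, the first gene of that list, ranged from 4.985 to 7.835 RPKM in F112 and 6.168 to 6.768 RPKM in NTg. Its log2 difference was -0.01 (limma adjusted p = 0.984). Differences in the list ran from -0.314 to 0.455. Of 19 clock genes, 10 were above and 9 below 0, with 3 lower at that p. Dbp and Per1, which peak at set hours of the day, differed by -0.26 and -0.15 and Nr1d1 by -0.12, with an adjusted p of at least 0.553. The labels give no hour of dissection.

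Heat shock genes were above 0 for 22 of 28, with 4 higher and none lower at an unadjusted p under 0.05. Of all genes, 2.21% were higher and 4.91% lower. The list median was 0.06. The median was 0.01 without F112 library 6325. Hspa1a, the inducible HSP70, was at 3.32, 4.05, 2.69 and 13.4 RPKM in F112 and 3.94, 3.32, 3.97 and 4.42 RPKM in NTg (log2 0.26, -0.20 without 6325). Hspb8, a small heat shock protein that works with BAG3 in autophagy of misfolded proteins, was at 21.2, 23.2, 23.1 and 21.7 RPKM in F112 and 19.0, 21.5, 18.5 and 21.1 RPKM in NTg, and its difference was 0.15 with and 0.17 without 6325. Hsp90aa1 was at 367, 364, 390.3 and 395 RPKM in F112 and 351, 361, 359.9 and 340.5 RPKM in NTg (log2 0.10), above NTg in all 4. The mitochondrial chaperonins Hspd1 and Hspe1 differed by 0.10 and 0.08.

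Genes of the unfolded protein and integrated stress response were above 0 for 22 of 32, with 1 higher and 1 lower at an unadjusted p under 0.05, and a median of 0.05 with and -0.01 without the same library. Hspa5, the endoplasmic reticulum chaperone BiP, was at 67.5, 65.3, 86.3 and 110.3 RPKM in F112, 84.0, 84.9, 76.5 and 78.7 RPKM in F08 and 65.4, 70.02, 72.6 and 76.0 RPKM in NTg. Libraries 6316 and 6317 lay within the NTg range or just under it, and 6324 and 6325 lay above it (log2 0.18, adjusted p = 0.766). Hsp90b1, the chaperone GRP94, was likewise highest in F112 6324 and 6325, at 87.6, 89.3, 99.5 and 105 RPKM, against 85.7, 91.4, 88.6 and 87.9 RPKM in NTg. Pdia3, a disulfide isomerase, was at 48.5, 49.9, 54.8 and 54.7 RPKM in F112 and 47.3, 48.4, 48.4 and 47.6 RPKM in NTg, above it throughout (log2 0.11). Sesn2, an ATF4 target that senses leucine, was at 5.53, 5.76, 4.67 and 4.83 RPKM in F112 and 6.21, 5.43, 5.63 and 6.12 RPKM in NTg (log2 -0.16).

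Interferon-stimulated genes were above 0 for 20 of 31, with 2 higher at an unadjusted p under 0.05 (median 0.04). Ifit3, an antiviral effector, was at 6.72, 6.05, 7.17 and 5.82 RPKM in F112 and 4.91, 5.23, 5.32 and 6.25 RPKM in NTg (log2 0.23), with NTg 6327 among the F112 values. Ifi27 differed by 0.10 and Usp18, which removes ISG15, by 0.21. Of 14 genes of the p53 response, 1 was higher and 2 were lower at that p. The apoptosis-linked Phlda3 was at 33.1, 32.9, 28.6 and 30.6 RPKM in F112 and 39.2, 34.5, 34.0 and 34.5 RPKM in NTg (log2 -0.18, -0.07 after the GC correction), and Ei24, an endoplasmic reticulum protein of autophagy, at 30.2, 30.1, 30.4 and 29.0 RPKM in F112 and 26.8, 26.9, 28.7 and 28.6 RPKM in NTg (log2 0.11).

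Genes mutated in ALS or FTD were split evenly, with 20 of 37 above 0 (median 0.01). At an unadjusted p under 0.05 none was higher and 4 were lower, against 2.21% higher and 4.91% lower of all genes. Pfn1, the actin-binding profilin 1, was at 61.9, 63.4, 56.3 and 57.4 RPKM in F112 and 71.0, 63.6, 62.2 and 67.4 RPKM in NTg (log2 -0.14, -0.08 after the GC correction). Chchd10, a protein of mitochondrial cristae, was at 65.1, 65.1, 54.2 and 62.5 RPKM in F112 and 74.7, 68.6, 66.4 and 66.8 RPKM in NTg (log2 -0.16, -0.10 without F112 6324), below it throughout. Ubqln2, a shuttle to the proteasome, differed by -0.09, and Unc13a, which primes synaptic vesicles, by -0.12. None of 37 genes of the nuclear pore and nuclear transport, a process that expanded repeats disturb in fly and cell models, reached an unadjusted p of 0.05. Of these, 27 were above 0, from -0.07 to 0.13, and the smallest p was that of the mRNA export factor Nxf1 (log2 0.06, limma adjusted p = 0.750). Among 29 hnRNPs and proteins that bind GGGGCC RNA, 3 were lower at that p. Pura, which binds the repeat RNA, was at 9.28, 9.18, 7.01 and 10.3 RPKM in F112 and 11.0, 9.62, 10.9 and 11.3 RPKM in NTg (log2 -0.25, -0.15 without F112 6324). Pcbp1 and Pspc1 differed by -0.14 and -0.11, and by -0.07 and -0.14 without F112 6324. None of 31 lysosome and autophagy genes reached that p, with all differences between -0.08 and 0.07. Atg5, needed for autophagosome growth, was at 9.75, 10.2, 10.3 and 10.0 RPKM in F112 and 9.52, 9.70, 9.29 and 9.65 RPKM in NTg, above it throughout, and Atg7, which acts in the same conjugation step, was at 7.45, 7.29, 6.85 and 7.42 RPKM in F112 and 7.73, 7.60, 7.63 and 7.76 RPKM in NTg, below it throughout.

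In the oligodendrocyte lineage, precursor genes were below 0 for 12 of 15 (list median -0.05, -0.06 after the GC correction). At an unadjusted p under 0.05, 4 were lower, against 4.91% of all genes. The lineage transcription factor Olig1 was at 70.3, 71.2, 54.4 and 63.2 RPKM in F112, 73.8, 77.2, 71.99 and 77.2 RPKM in F08 and 80.4, 77.7, 70.7 and 74.7 RPKM in NTg (log2 -0.23, -0.15 after the GC correction, -0.15 without F112 6324). Sox8 was at 20.5, 19.7, 15.5 and 17.2 RPKM in F112 and 20.8, 21.4, 20.8 and 20.8 RPKM in NTg (log2 -0.20, -0.13 without F112 6324). Nkx2-2 was at 4.51, 4.39, 2.99 and 4.20 RPKM in F112 and 5.01, 4.57, 4.72 and 4.75 RPKM in NTg (log2 -0.23, -0.11 without F112 6324). F112 was below NTg throughout for Sox8 and Nkx2-2, which encode transcription factors of the same lineage, with library 6324 the lowest in both, and Olig1 overlapped at F112 6317. Of 21 myelin genes, 9 were above and 12 below 0, with 1 higher and 4 lower at an unadjusted p under 0.05. Mbp, myelin basic protein, differed by -0.06. Trf, the iron carrier transferrin, was at 494, 465, 458 and 496 RPKM in F112 and 525, 544, 528 and 496 RPKM in NTg (log2 -0.13), and Tspan2, a tetraspanin of myelin, at 48.4, 44.6, 51.4 and 44.1 RPKM in F112 and 40.7, 44.8, 45.4 and 43.3 RPKM in NTg (log2 0.11, 0.07 without F112 6324).

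Astrocyte genes were below 0 for 15 of 17, by little (median -0.06, -0.05 after the GC correction), with 2 lower at an unadjusted p under 0.05. Gfap, the filament protein of reactive astrocytes, was at 452, 401, 430.4 and 428 RPKM in F112 and 405, 468, 439 and 448 RPKM in NTg (log2 -0.04, adjusted p = 0.906), and none of 11 reactive astrocyte genes reached that p. Slc1a2, the main glutamate transporter, was at 164, 154, 175 and 163 RPKM in F112 and 168, 177, 173 and 171 RPKM in NTg. Acsbg1, an acyl-CoA synthetase, and Sox9, the lineage factor, differed by -0.10 and -0.16, and by -0.07 and -0.08 without F112 6324. Among 19 homeostatic microglial genes, 14 were below 0 and only Selplg, the P-selectin ligand, reached that p (-0.13, -0.08 without F112 6324). Of 17 disease-associated microglial genes, 7 were above and 10 below 0, with 1 higher and 3 lower at that p. Fth1, the ferritin heavy chain, which oligodendrocytes also make, was at 3455, 3367, 2972 and 3226 RPKM in F112, 3470.0, 3589, 3175 and 3277 RPKM in F08 and 3660.0, 3646, 3857 and 3532 RPKM in NTg (log2 -0.18, adjusted p = 0.547, 0 with quantile normalization), below NTg throughout and the only one of the list that did not overlap. Apoe, made mostly by astrocytes in healthy tissue, was at 811, 839, 650.3 and 778 RPKM in F112, 875, 901, 917 and 909 RPKM in F08 and 939, 873, 817 and 932 RPKM in NTg (log2 -0.21, -0.15 after the GC correction, -0.14 without F112 6324). The receptor gene Axl differed by -0.09, and Spp1, osteopontin, which motor neurons also express, by 0.12.

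Markers of tissue around the cord differed widely in level. Myh1 of skeletal muscle did not exceed 0.0194 RPKM in F112 or 0.0189 RPKM in NTg. Ttr of choroid plexus did not exceed 0.697 RPKM in F112 or 0.0617 RPKM in NTg. Among meningeal and fibroblast genes, Slc22a6 did not exceed 0.0079 RPKM in F112 or 0.0094 RPKM in NTg. Others of that list were clearly present. Dcn was at 4.3 to 5.57 RPKM in F112 and 3.82 to 5.26 RPKM in NTg. Ptgds was at 317 to 376 RPKM in F112 and 289 to 394 RPKM in NTg. Globin genes were present, and all 8 blood genes tested were below 0, with none at an unadjusted p under 0.05. Hba-a1 was at 66.9, 78.1, 107 and 124 RPKM in F112, 67.5, 135, 122 and 110.0 RPKM in F08 and 89.0, 93.8, 222 and 175 RPKM in NTg (log2 -0.56, SE 0.28), and Hba-a2, its near-identical neighbour, differed by -0.58. NTg 6326 and 6327 held the most. The 14 blood genes summed to 264 to 419 RPKM in F112 and 309 to 729 RPKM in NTg. Hbb-b2 and Hbb-bt had the same values in every library, and both are in the counts and sums given for this list. The part of blood in other results was not tested. Ependymal and choroid plexus genes were below 0 for 8 of 10, with 3 lower at that p, against 4.91% of all genes. Ccdc153, a gene of ependymal cilia, was at 2.19, 1.66, 1.66 and 1.51 RPKM in F112 and 2.74, 2.47, 2.50 and 1.86 RPKM in NTg (log2 -0.36), and Foxj1, the master regulator of motile cilia, at 9.22, 8.99, 7.57 and 10.2 RPKM in F112 and 11.3, 10.8, 10.4 and 9.61 RPKM in NTg (log2 -0.22, -0.13 after the GC correction, -0.14 without F112 6324). Of 20 endothelial and mural genes 3 were lower at that p, against 4.91% of all genes. Among them were Pdgfrb, the pericyte receptor, at 3.11, 3.44, 3.08 and 2.97 RPKM in F112 and 3.69, 3.66, 3.64 and 3.42 RPKM in NTg, and the pericyte channel gene Kcnj8 (-0.24). Mgp, matrix Gla protein, was the only one of 10 meningeal and fibroblast genes at that p (-0.24), and the 15 genes of that list summed to 344 to 405 RPKM in F112 and 316 to 425 RPKM in NTg.

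Ribosomal protein genes had 2 of 77 higher and 5 lower at an unadjusted p under 0.05, and oxidative phosphorylation genes 1 of 74 higher and 9 lower. Of all genes, 2.21% were higher and 4.91% lower. The ribosomal list median was -0.02 with all libraries and 0.01 without F112 6324. Rpl13 was at 159.6, 163, 129 and 149 RPKM in F112 and 202, 169, 165 and 176 RPKM in NTg (log2 -0.25), and Rps25, needed in yeast and human cells for efficient translation of the expanded repeat, at 129, 124, 122 and 121 RPKM in F112 and 113, 116, 120.3 and 119 RPKM in NTg, above it throughout (log2 0.08). Atp5d, a subunit of ATP synthase, was at 111, 111, 78.6 and 99.2 RPKM in F112 and 130.2, 126, 116 and 126 RPKM in NTg (log2 -0.33, -0.26 after the GC correction, -0.22 without F112 6324). The complex I subunit genes Ndufb2 and Ndufa6 differed by -0.24 and -0.14. Without F112 6324 the median of the oxidative phosphorylation list was 0.004. Replication-dependent histone genes were below 0 for 12 of 13 tested, of 66 in the table. Their median was -0.23 and -0.08 without F112 6324. Hist2h2aa1 was at 13.8, 12.0, 9.56 and 10.2 RPKM in F112 and 15.6, 14.2, 12.8 and 14.2 RPKM in NTg (log2 -0.31), and Hist2h3c2 differed by -0.45. Of 24 genes of cholesterol and fatty acid synthesis, 17 were below 0, with 3 lower at that p, and the lanosterol synthase gene Lss differed by -0.12.

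Of 16 Hox genes of lumbar cord, 10 were above and 6 below 0. Hoxa7 was at 9.03, 9.06, 7.62 and 9.16 RPKM in F112 and 10.5, 10.7, 10.3 and 9.90 RPKM in NTg (log2 -0.24, adjusted p = 0.424), below it throughout, and Hoxa10, which patterns more caudal segments than Hoxa7, was at 13.5, 14.2, 13.2 and 12.7 RPKM in F112 and 13.5, 12.8, 11.2 and 11.5 RPKM in NTg (log2 0.13). Small RNA genes were measured poorly: the snoRNA Snora81 corresponds to roughly 2 to 9 reads a library and the microRNA entry Mir8094 to no more than 6.

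**Figure D5:**
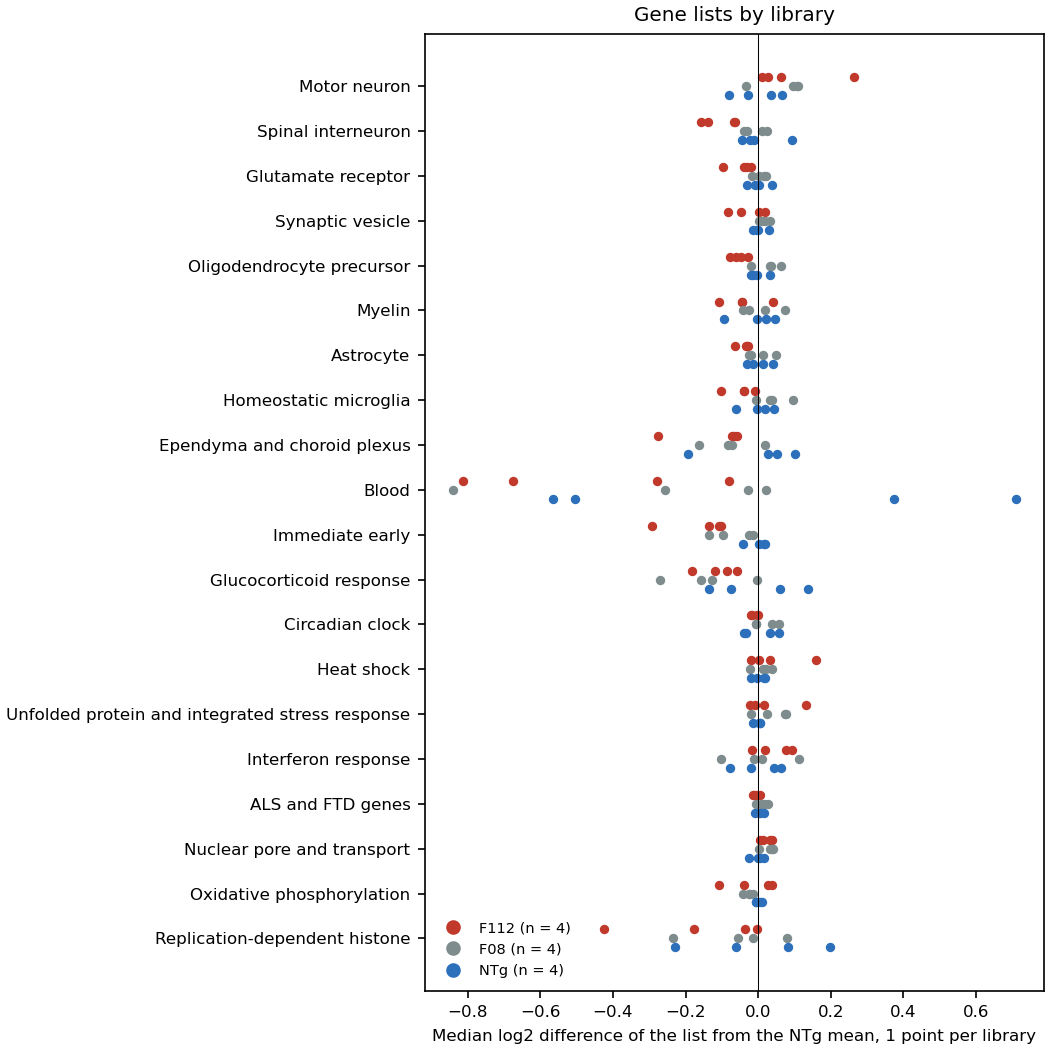
For 20 gene lists, each point is 1 spinal cord library and gives the median over the list of its log2 difference from the NTg mean; in each row F112 libraries are on top, F08 in the middle and NTg at the bottom. All 4 F112 points of the immediate early list lie below all 4 NTg points, while blood and histone lists spread widely within every group.

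Set against F08, F112 differed at 3 genes (0.0217% of those tested), all of them lower in F112 and close together on chromosome 19. Ide, which degrades insulin and amyloid beta, was at 9.23, 9.24, 10.1 and 10.5 RPKM in F112, 14.8, 14.8, 14.9 and 18.4 RPKM in F08 and 9.42, 9.30, 10.4 and 9.43 RPKM in NTg (F112 minus F08 -0.66, limma adjusted p = 0.00105). Fgfbp3, a secreted carrier of fibroblast growth factors, was at 1.28, 1.38, 1.08 and 1.03 RPKM in F112, 2.02, 1.91, 1.98 and 2.63 RPKM in F08 and 1.25, 1.42, 1.24 and 1.48 RPKM in NTg (-0.63, adjusted p = 0.0358). Btaf1, which moves TATA-binding protein off DNA, was at 3.33, 3.35, 3.82 and 3.64 RPKM in F112, 4.72, 4.73, 4.69 and 5.81 RPKM in F08 and 3.33, 3.48, 3.68 and 3.63 RPKM in NTg (-0.44, adjusted p = 0.0431). F08 was the group that stood apart in all 3, and F112 overlapped NTg. With 1 library left out in turn, Ide passed in all 12 fits, Fgfbp3 in 2 and Btaf1 in 1. In F08 against NTg, Ide was the only gene to pass (0.00724% of those tested; 0.67, adjusted p = 0.000760). The 3 genes lie between 36917550 and 37334544 (GRCm38) and were picked out with their values in view. For the genes lowest in F112, the F08 libraries overlapped NTg in 4930413G21Rik, Ppp1r35 and Hbq1a, with differences between F112 and F08 of -0.69, -0.45 and -0.71 and adjusted p of 0.0583, 0.157 and 0.157. For Dusp1 the difference between F112 and F08 was -0.01.

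The cortex of the same mice, with 3 F112 and 4 NTg libraries, was sequenced by an Ion Torrent protocol and the cord by an Illumina one. Cortex values were scaled and fitted apart, so their differences are given only side by side. 4930413G21Rik differed by -0.25 in cortex and -0.80 in cord, and Ppp1r35 by -0.10 in cortex and -0.52 in cord. Scand1 had differences of 0.13 in cortex and -1.06 in cord, and Pou3f3os of 0.09 in cortex and 0.22 in cord. Mouse C9orf72 was at 10.2, 9.54 and 10.7 RPKM in F112 cortex, 6.98, 5.51, 6.54 and 7.44 RPKM in F08 cortex and 3.05, 4.20, 3.44 and 3.05 RPKM in NTg cortex. No source used here says whether human reads of the transgene were counted on the mouse gene in either tissue. Both transgenic groups were above every NTg cortex library, and the log2 difference of F112 from NTg was 1.44 in cortex (limma adjusted p = 0.00159), against 0.07 in cord. It was the only gene that passed between F112 and NTg in the cortex fit, 0.00722% of the 13842 genes tested there. The immediate early list had a median of -0.25 in cortex and -0.14 in cord, with Dusp1 at -0.55 in cortex and -0.31 in cord. Whether cortex and cord differed was not tested.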

How the data were processed

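Lumbar cord RNA was sequenced by an Illumina protocol and brain RNA by an Ion Torrent one, after Trizol and column extraction of total RNA from frozen tissue, per the labels. The authors deposited RPKM per gene. The submitters' processing notes name TopHat2 2.0.8b, Partek, mm9 and mm10 without roles; no source used here gives strand or counting rules. Alignments per library, 28479400 to 38811100, come from a row of the deposited table.

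The 26 gene names turned into dates were dropped, and genes averaging 0.5 RPKM or more over the table were kept. log2(RPKM + 0.5) was fitted with limma 3.58.1 in R 4.3.3 (mean-variance trend, 12 libraries of 3 groups in 1 fit, two-sided, Benjamini-Hochberg over 13816 genes). The scale understates the change of low genes. A fit of simulated data with known changes was checked. The exact permutation test is two-sided. GC content comes from GENCODE M21 transcripts and positions from RefSeq (GRCm38.p6).

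The groups and gene lists were chosen with earlier results of these data known. Named genes were mouse C9orf72; up to 12 genes per direction, those that passed and then those with the smallest p; up to 4 members with the smallest p and the first member of each list; and landmarks such as Chat. Not every gene the rule takes is described, and a few are not reported here. Rbbp6, Wdr41, Lars2, Hbq1b, Hba-a1, Hba-a2, Ide, Fgfbp3, Btaf1, H2-Q8, Opalin, Zbtb16 and those said so beside their values were named after their values were seen. Library values have no interval, since RPKM gives no read count; read numbers are approximations from length and alignments. Alternatives were other scalings, pseudocounts, filters, fits and covariates, and leaving out each library.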

Additional observations from a re-analysis of the deposited data

Results flagged for a closer look

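Values were examined in 254 groups of 4 libraries, and in 11 of them a library lay apart from the other 3 by more than Dixon's 95% critical value for 4. Chance gives about 5% of groups. F112 library 6325 was apart 4 times, with Rpl22l1 at 71.19 RPKM (below the other F112 libraries), Hspa1a at 13.45 RPKM, Rn45s at 459.3 RPKM and 38811100 alignments (above them). F112 library 6324 was apart with low Hapln2, at 38.99 RPKM, and low Hoxa7, at 7.617 RPKM. NTg library 6322 was apart 4 times. It held the highest NTg values of 4930413G21Rik, at 2.619 RPKM, and of En1, at 0.8764 RPKM, and it also differed from the other NTg libraries in Phlda3, at 39.17 RPKM, and Arc, at 8.795 RPKM. NTg library 6323 was apart with the highest Sox8 of its group, at 21.43 RPKM.

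The effects of the transgenes, each set against NTg, differed at 3 genes, tested as the contrast of F112 with F08 (limma adjusted p under 0.05). It was -0.66 for Ide, -0.63 for Fgfbp3 and -0.44 for Btaf1 on the log2 scale, and for each all 4 F112 libraries were below all 4 F08 libraries.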

How the results depend on the processing

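The count of genes that passed between F112 and NTg was 1 as reported and 0 with a pseudocount of 1 RPKM, no filter, only the groups compared, a filter at 5 RPKM, array weights, or log2 alignments as a covariate. For F112 against F08 it was 3 as reported, 1 with no filter, a fit of only the groups compared or a filter at 5 RPKM, and 6 with array weights or Xist as a covariate. For F08 against NTg it was 1 as reported, 2 with robust empirical Bayes, array weights, the Xist covariate or the GC correction, and 0 with the alignments covariate. With 1 library left out, these counts ranged from 0 to 2, 1 to 4 and 1 to 1. The filter at 5 RPKM drops 4930413G21Rik, Fgfbp3 and Btaf1 before the test, so their calls could not be kept under it. The GC correction, the alignments covariate and the fits of 6 libraries alike in Xist were chosen after seeing the data. The fits of libraries alike in Xist hold only 2 libraries a group. In libraries high in Xist, 3 genes passed between F112 and NTg (H2-Q8, Opalin and Rn45s), 46 between F112 and F08 and 12 between F08 and NTg; in libraries low in Xist the counts were 2 (Calca and Zbtb16), 0 and 0. Where the count for F112 against NTg was 0, 626 (filter at 5 RPKM) to 1527 (without F112 6317) genes had an unadjusted p under 0.05. The cause was not tested.

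These signs turned on the log2 scale, none with a call. Gria1, Snap25, Gad1 and Fkbp5 were not among the genes checked. Mbp was 0 and Fth1 0 with quantile normalization, and Mbp was 0.004 in libraries high in Xist. Chat was -0.026 with array weights, -0.009 with the alignments covariate, -0.096 in libraries high in Xist and -0.035 to 0.066 with 1 library left out. Btg2 was 0.058 with array weights and -0.232 to 0.01 with 1 left out. Rbbp6 was -0.005 with the GC correction and -0.01 to 0.073 with 1 left out. Hspa1a was -0.397 and Gfap 0.013 with the alignments covariate. Leaving out 1 library gave -0.204 to 0.505 for Hspa1a and 0 to 0.146 for Hoxc10. In libraries high in Xist, Hspa5 was -0.028 and Hsp90b1 0. Of the other gene values, 3175 kept their sign and side of the threshold, 49 (for 4930413G21Rik, Btaf1, Fgfbp3 and Ide) lost their call and 2 gained one; 907 list medians moved by less than their spread and 49 by more.

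No paired analysis was possible because every library of a tissue comes from a different mouse and nothing pairs the groups. With 4 libraries a group and a median SE of 0.06, small differences could not be called, and low genes rest on few reads.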
